A study of Mus musculus with 15 samples.

Results

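Unc119b (ENSMUSG00000046562) and Kdelr2 (ENSMUSG00000079111) were followed through all the sequencing libraries of a mouse testis series, 2 genes of the 50051 features counted in RNA-seq (49585 genes and 466 piRNA precursors) and of the 49585 genes counted in small RNA. They were chosen because their sense small RNA was lower in homozygous than in heterozygous testes, so their small RNA values are given as a description without a test. The long RNA and the RNA of the opposite strand come from separate libraries and were tested. Testes came from B6D2F1 mice at postnatal day 28 that were labelled Chr18+/+ (wild type, both copies, 2, of the chromosome 18 piRNA locus intact), Chr18+/- (heterozygous, 1 copy) or Chr18-/- (homozygous, 0 copies). Strand-specific total RNA-seq covered 3 libraries of each of the 3 genotypes. Small RNA sequencing covered 3 heterozygous and 3 homozygous libraries, with no wild type, after periodate treatment and β-elimination, which deplete RNAs without a methylated 3′ end. No other allele, agent or treatment is named in the labels, and whether the libraries stem from separate animals is not said, so a p-value here reflects library-to-library spread alone.

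PIWI proteins of male germ cells carry pachytene piRNAs, small RNAs that are cut out of long single-stranded precursors, and messenger RNAs can also be cut into piRNAs, mostly along their 3′ untranslated regions. UNC119B is a chaperone of the UNC119 family that holds the myristoyl group of lipid-modified proteins and hands them over at the cilium when ARL3 binds it. KDELR2 is a KDEL receptor, a membrane protein of the Golgi that captures escaped chaperones of the endoplasmic reticulum by a short tail signal and returns them in COPI vesicles.

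RNA-seq libraries held 21684791 to 41513634 counted fragments and small RNA libraries 939641 to 1861402 counted reads. Long RNA of 2 divergent precursors at the chromosome 18 locus, 18_qE1_36451_1 (minus strand) and 18_qE1_1295_2 (plus strand), checked the RNA-seq labels. The minus-strand precursor averaged 273 ± 20.7 CPM (the count divided by the scaled library size) with both copies intact, 163 ± 37.1 with 1 copy and 0.156 ± 0.049 with 0 (SD, n = 3 each). The plus-strand precursor stood at 39.8 ± 1.59, 22.2 ± 3.94 and 0.047 ± 0.054 CPM in the same order. A shorter plus-strand precursor, 18_qE1_1295_1 (15075 bases), lies wholly inside the latter (17793 bases) and is listed at 0 in every group, since fragments in both were not counted, so the level of the longer one comes from the part outside it. The small RNA counts hold no precursor features, so the genotype of those 6 libraries was not checked in this way. All 8 germ cell markers were detected, among them Piwil1, Ddx4, Prm1 and Tnp1. The summed level of 5 elongating spermatid markers spanned 11254 to 11729 CPM for wild type, 3643 to 9656 for heterozygotes and 6207 to 8502 for homozygotes, and that of 5 Leydig cell markers 763 to 862, 304 to 412 and 297 to 410 CPM, with 1 Leydig marker at 0 in all 9 libraries. Both sums separated wild type from the other genotypes without overlap, whereas 4 pachytene spermatocyte markers overlapped at 2508 to 2999, 2821 to 2901 and 2802 to 3011 CPM. Of single features, 42.6% and 42.1% did not overlap with wild type in homozygotes and heterozygotes. The sum of 8 germ cell markers was also apart in wild type. That of 5 Sertoli markers was apart from heterozygotes only (720 to 747, 596 to 664 and 634 to 732 CPM). The sum of 3 round spermatid markers overlapped (401 to 481, 409 to 469 and 454 to 496 CPM). That of 2 epididymis markers spanned 0.227 to 30.9 CPM within wild type alone. In whole testis RNA, fewer cells of a type and less RNA per cell cannot be told apart.

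Both genes lie on chromosome 5. Unc119b spans chr5:115122550-115134975 on the minus strand (mm10), 12426 bases with 4603 exonic bases in 10 annotated exon entries. No annotated feature overlapped it. Its neighbours are Acads, a mitochondrial acyl-CoA dehydrogenase, 3203 bases away on 1 side, and Mlec together with the genic piRNA precursor pi_Mlec_1, 8005 bases away on the other side. Kdelr2 spans chr5:143403838-143421901 on the plus strand, 18064 bases with 1829 exonic bases in 5 exons, and again no annotated feature overlapped it. The minus-strand gene Gm20635 ends 89 bases before its start, and Gm4870 lies 16491 bases beyond its end.

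The transcripts of the 2 genes differed in how far they matched the plus-strand precursor of the chromosome 18 locus in antisense. The precursor was represented by a single-exon GENCODE transcript that covers 100% of it. The annotated RNA of the minus-strand precursor covers only 5.6% of that precursor. It was searched along with the plus-strand transcript, so run lengths and alignments over genes are against both. The rest of the minus-strand precursor was not searched. In Unc119b, bases 2290 to 3646 of the 3659-base transcript aligned to the precursor in antisense (a BLAST search with word size 11 and e-value limit 0.001). The stretch has 1377 alignment columns, of which 1312 (95.3%) were identical, 37 were mismatches and 28 were gaps. It lies wholly in the last exon and in the 3′ untranslated region, at chr5:115122563-115123919, and takes in 47.8% of the 2838 untranslated bases but none of the coding sequence (bases 66 to 821). The longest stretch of perfect complementarity was 153 bases. Among 55448 genes outside the locus, Gm37924 alone had a longer run, of 158 bases, and the next was Olfr351 with 65. In Kdelr2, whose single annotated transcript has 1829 bases, there was no BLAST alignment to either precursor transcript. Its longest complementary run was 16 bases, a length that 15.9% of genes reached. The thresholds of this search were set after the Unc119b match had been seen.

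**Figure D1:**
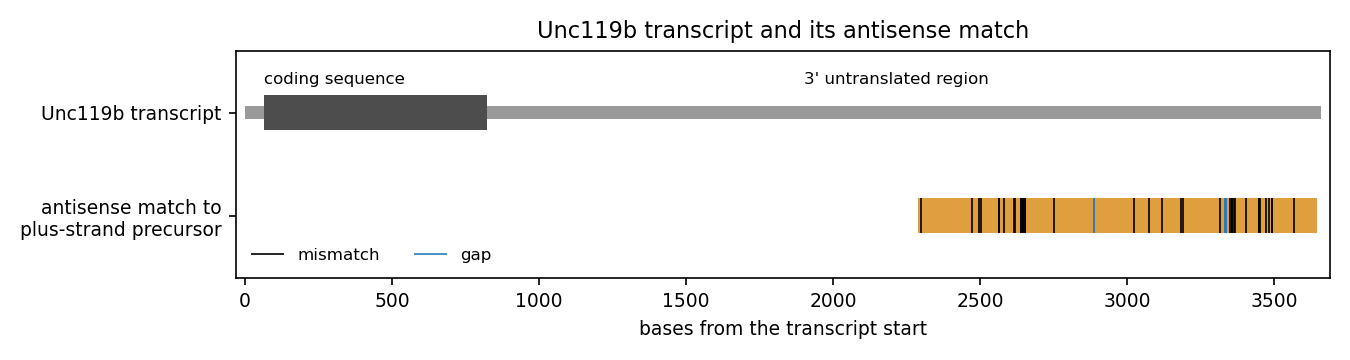
Map of the Unc119b transcript in bases from its start (x axis), with the coding sequence as a dark box and the untranslated regions in grey, above the stretch that matches the plus-strand precursor in antisense (orange) with mismatches in black and gaps in blue. The match covers bases 2290 to 3646, all in the 3′ untranslated region.

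A piRNA-sized window of 28 bases was used to ask where in the matched stretch a read from Unc119b could be told from a copy complementary to the precursor. Of the 3632 such windows in the Unc119b transcript, 697 (19.2%) occurred unchanged on either strand of the plus-strand precursor's transcript. Of the 1330 windows inside the aligned stretch, 633 did not. For Kdelr2 the number of unchanged windows was 0. The 2 gap-free stretches of 30 bases with the most differences are printed 5′ to 3′ on the Unc119b strand from the GRCm38 genome, because they are where Unc119b RNA departs most from the complement of the precursor. Capitals mark the Unc119b bases that differ from that complement. The first lies at chr5:115123549-115123578 (transcript bases 2631 to 2660) with 7 differing and 23 matching bases, and the second at chr5:115122836-115122865 (bases 3344 to 3373) with 5 differing and 25 matching bases.
Unc119b site 1: cttagctCAgtagcTCAcagcCtGggacgc
Unc119b site 2: cagcaTtttgcTGtgtctggGgtgAgccat

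The first comparison set the sense small RNA of homozygotes against heterozygotes, to ask which small RNAs of other genes accompany the loss of the last intact copy. Over the Unc119b exons, heterozygous libraries held 491, 369 and 374 reads and homozygous libraries 100, 63 and 46. Every heterozygous library lay above every homozygous one, and the lowest heterozygous count was more than 3 times the highest homozygous count. Scaled to library size, these were 291, 374 and 307 CPM against 68.1, 53.3 and 44.4 CPM. The means were 324 ± 44.1 and 55.3 ± 11.9 CPM (SD, n = 3 each), so homozygotes held 17.05% of the heterozygous level (log2 fold change -2.54). A remainder of 209 reads over the 3 homozygous libraries was still assigned to Unc119b.

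Kdelr2 carried far fewer reads. Heterozygous libraries held 42, 29 and 34 reads and homozygous libraries 10, 12 and 7, which are 24.9, 29.4 and 27.9 CPM against 6.81, 10.2 and 6.76 CPM. Again the 2 groups did not overlap. The means were 27.4 ± 2.29 and 7.91 ± 1.95 CPM (SD, n = 3 each), 28.8% of the heterozygous level (log2 fold change -1.78). The homozygous total of 29 reads has an exact 95% Poisson interval of 19.4 to 41.6, which covers counting error only. Per kilobase of exon, small RNA stood at 70.4 ± 9.59 CPM for Unc119b and 14.99 ± 1.25 for Kdelr2 among heterozygotes, and at 12.01 ± 2.60 and 4.32 ± 1.06 among homozygotes (SD, n = 3 each), so Unc119b was the richer of the 2 on this scale in both groups.

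**Figure D2:**
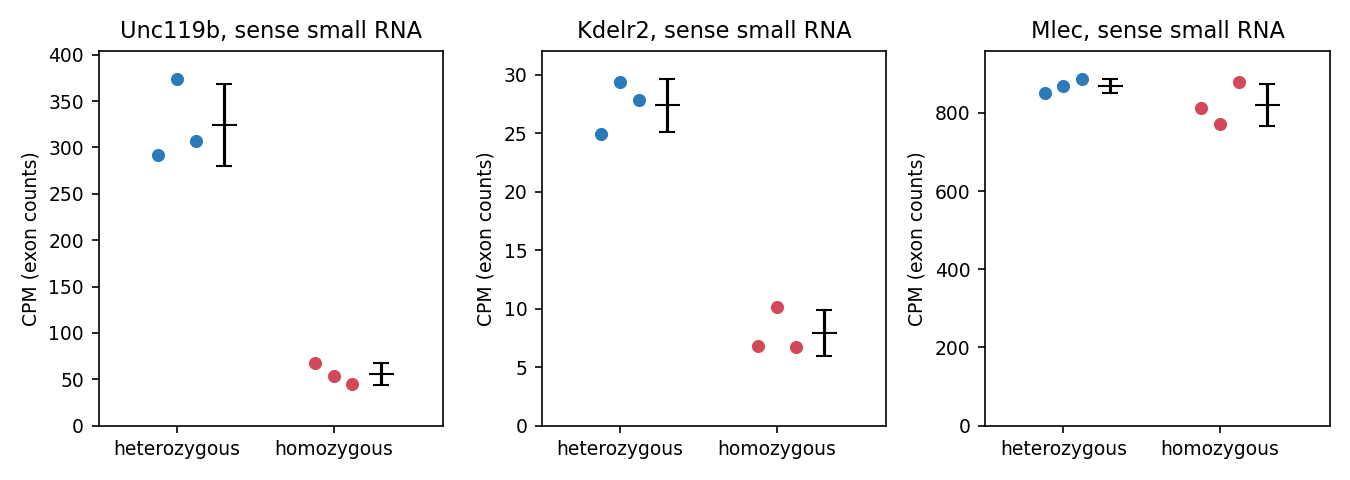
Sense small RNA over exons in CPM (y axis) for Unc119b, Kdelr2 and the neighbouring gene Mlec in 3 heterozygous and 3 homozygous libraries (points), with the mean and SD beside them. The 2 groups are apart for Unc119b and Kdelr2, at 324 against 55.3 and 27.4 against 7.91 CPM, and overlap for Mlec.

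Among the 3581 genes with enough small RNA to be fitted, Unc119b had the lowest log2 fold change and Kdelr2 the third lowest. Between them lay Tuba8, a tubulin gene, with heterozygotes at 16.5 ± 4.29 CPM and homozygotes at 4.10 ± 5.71 (log2 fold change -2.15). The next 2 below Kdelr2 in size were Rreb1, a zinc finger transcription factor, at -1.75, and Elp2, an Elongator subunit, at -1.71. By heterozygous level Unc119b ranked 178 and Kdelr2 1437 of 3581. In the fit over all of them, 0.0279% passed an adjusted p of 0.05 and 8.71% had an unadjusted p under 0.05. Groups that did not overlap were found for 15.9% of the 3581 genes. As the members were chosen on this contrast, nothing is read from these shares.

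**Figure D3:**
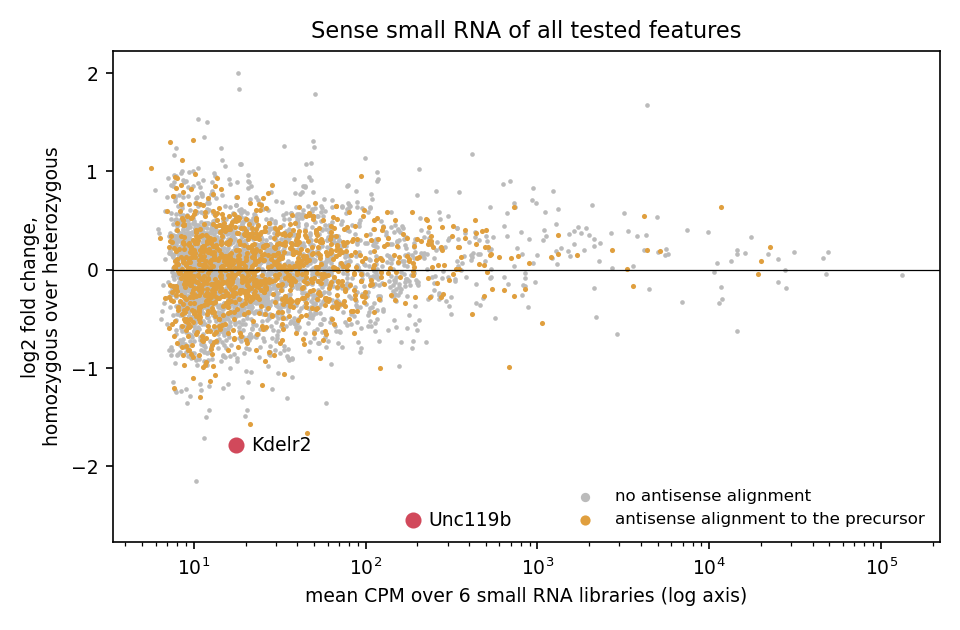
Log2 fold change of sense small RNA in homozygotes over heterozygotes (y axis) against the mean CPM over 6 libraries (x axis, log scale) for the 3581 fitted genes, each a point. Orange points have an antisense alignment to an annotated transcript of either precursor, and the labelled red points are Unc119b (-2.54) and Kdelr2 (-1.78).

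Mlec, the neighbour of Unc119b that codes for malectin, a sugar-binding protein of the endoplasmic reticulum, had more small RNA than either gene. Heterozygous libraries held 1434, 855 and 1082 Mlec reads and homozygous libraries 1193, 913 and 910, or 869 ± 18.5 and 821 ± 53.6 CPM (SD, n = 3 each). The 2 groups overlapped, and Mlec did not pass the test (log2 fold change -0.08, 95% interval -0.40 to 0.24, edgeR adjusted p = 0.879). In RNA-seq both Mlec and pi_Mlec_1 are listed at 0 in all 9 libraries, since fragments in overlapping features of 1 strand were not counted. Acads, Gm20635 and Gm4870 had 0 small RNA reads in the 6 libraries.

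The paralogs of the 2 genes carried almost no sense small RNA. Unc119, the founding member of the family, had 6 reads over the heterozygous and 2 over the homozygous libraries. Kdelr1 had 3 and 4, and Kdelr3 had 1 and 0. These 3 genes did not reach the minimum for the fit.

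Antisense complementarity to the annotated transcripts of both precursors was compared with small RNA over the fitted genes, of which 3578 have annotated transcripts. Apart from the 2 members, 1107 had an antisense alignment, and their log2 fold changes ran from -1.66 to 1.32 with a median of 0.02. The 2469 without one ran from -2.15 to 2.00 with a median of -0.02, and 0 genes of either group passed at an adjusted p of 0.05 in edgeR. The members were chosen on this contrast, so nothing is read from where they lie beside these groups. The genes with the next best alignments after Unc119b were Zbtb8os (613 columns at 85.5% identity, log2 fold change -0.28), Nom1 (620 columns at 85.2%, 0.17) and Noct (1248 columns at 74.4%, -0.24). Unc119b was the only 1 of the 3578 with a complementary run of 153 bases or more. With 1 gene at this length, whether small RNA follows the length of the match was not tested.

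Long RNA was then compared in the 9 RNA-seq libraries, where counts cover the whole gene body with introns, to ask whether the transcripts themselves differed by genotype. Wild-type libraries held 548, 465 and 348 Unc119b fragments, heterozygous libraries 749, 496 and 399, and homozygous libraries 519, 537 and 449. In CPM, wild type had 16.9, 17.2 and 15.8, heterozygotes 17.1, 16.6 and 13.7, and homozygotes 18.4, 18.8 and 17.3. The 3 homozygous libraries lay just above the 6 others, and heterozygous library 3 was the lowest of all.

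Unc119b means were 16.6 ± 0.71, 15.8 ± 1.83 and 18.1 ± 0.77 CPM in this order (SD, n = 3 each), and no contrast passed. Homozygotes exceeded heterozygotes by 0.20 on the log2 scale (SE 0.11, 95% interval -0.04 to 0.43, edgeR unadjusted p = 0.090, adjusted p = 1.00). In this comparison 6 of 20782 features (0.0289%) passed, and 8.31% had groups that did not overlap. Against wild type the log2 fold change of Unc119b was 0.13 in homozygotes (95% interval -0.11 to 0.36, edgeR adjusted p = 0.434) and -0.07 in heterozygotes (-0.31 to 0.16, adjusted p = 0.659). Of all features, 20.8% and 23.9% passed in these 2 contrasts, which share the wild-type libraries, and 42.6% and 42.1% had groups that did not overlap. The sign of the heterozygous value turned, to 0.02, without heterozygous library 3.

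Wild-type libraries held 1882, 1374 and 1108 Kdelr2 fragments, heterozygous libraries 2341, 1556 and 1464, and homozygous libraries 1563, 1605 and 1426. In CPM, wild type had 58.0, 50.8 and 50.4, heterozygotes 53.6, 52.0 and 50.3, and homozygotes 55.4, 56.1 and 54.9. Homozygotes lay above heterozygotes by a narrow margin, and wild-type library 1 was the highest of the 9.

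Kdelr2 means were 53.1 ± 4.30, 52.0 ± 1.62 and 55.5 ± 0.62 CPM in this order (SD, n = 3 each), and no contrast passed here either. The log2 fold change was 0.09 between homozygotes and heterozygotes (SE 0.08, 95% interval -0.09 to 0.28, edgeR adjusted p = 1.00). Against wild type it was 0.06 in homozygotes (95% interval -0.12 to 0.25, edgeR adjusted p = 0.626) and -0.03 in heterozygotes (-0.21 to 0.15, adjusted p = 0.822). The heterozygous value became 0.04 without wild-type library 1. Per kilobase of gene body, long RNA of Kdelr2 stood at 2.94 ± 0.24 CPM in wild type against 1.34 ± 0.06 for Unc119b (SD, n = 3 each), the reverse of the order found per kilobase of exon in small RNA.

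**Figure D4:**
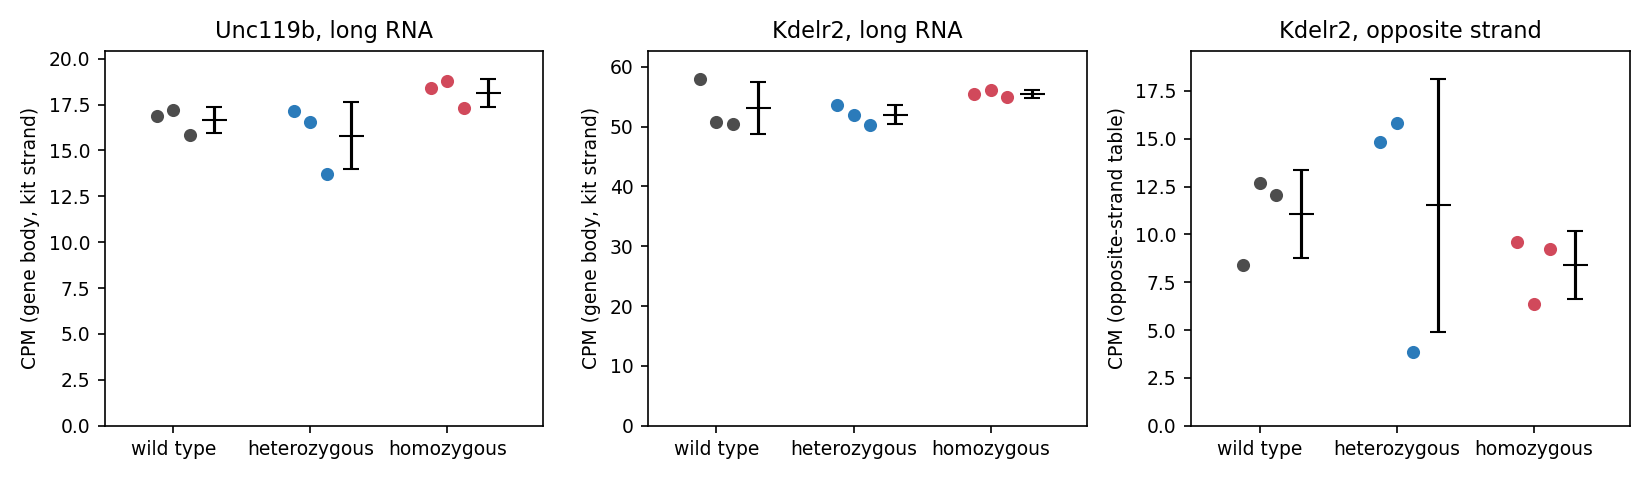
Long RNA of Unc119b and Kdelr2 (gene body counts of the kit strand) and opposite-strand RNA of Kdelr2 in CPM (y axes) for 3 wild-type, 3 heterozygous and 3 homozygous libraries (points), with the mean and SD beside them. Group means of long RNA lie between 15.8 and 18.1 CPM for Unc119b and between 52.0 and 55.5 for Kdelr2, and the heterozygous libraries spread most on the opposite strand.

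RNA of the opposite strand was read from the same 9 libraries, where it made up 8.81 to 10.7% of the kit-strand total. Unc119b had almost none, at 2, 2 and 2 fragments for wild type, 4, 2 and 0 for heterozygotes, and 2, 1 and 1 for homozygotes. These 16 fragments were 0.354% of the fragments of both strands (exact 95% interval 0.202 to 0.573%, counting error only), and they were too few to be fitted. That share was below the total over all features, which is set against the kit strand alone and is not that of a typical gene. Kdelr2, at 1.88% of both strands, was below it too. No genotype stood apart at this depth.

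Kdelr2 had opposite-strand fragments in all libraries, 27, 35 and 27 for wild type, 63, 46 and 11 for heterozygotes, and 26, 16 and 23 for homozygotes, 1.88% of the fragments of both strands (exact 95% interval 1.66 to 2.11%). Relative to all opposite-strand fragments these were 11.1 ± 2.31, 11.5 ± 6.64 and 8.41 ± 1.76 CPM (SD, n = 3 each). Heterozygous library 3, at 3.87 CPM, was below the homozygous libraries, and the other 2, at 14.9 and 15.8 CPM, were above all the rest.

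Kdelr2 did not pass in any opposite-strand contrast. The log2 fold change was -0.47 between homozygotes and heterozygotes (SE 0.39, 95% interval -1.29 to 0.34, edgeR adjusted p = 0.999), where 0 of 12303 features (0%) passed, with 472 (3.84%) at an unadjusted p under 0.05. Against wild type it was -0.38 in homozygotes (95% interval -1.22 to 0.46, edgeR adjusted p = 0.601) and 0.10 in heterozygotes (-0.69 to 0.88, adjusted p = 0.901), beside 9.7% and 10.2% of features that passed. Without heterozygous library 3 the contrast of homozygotes with heterozygotes moved to -0.86, and without wild-type library 1, heterozygous library 1 or heterozygous library 2 the heterozygous value against wild type turned to -0.08, -0.14 and -0.15.

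The long RNA of the paralogs was compared in the same fit. Kdelr1, another KDEL receptor, had 602, 393 and 348 fragments for wild type, 588, 366 and 283 for heterozygotes, and 331, 377 and 263 for homozygotes. Wild-type libraries lay above all 6 others in CPM, at 14.5 to 18.6 against 9.73 to 13.5 and 10.1 to 13.2. Kdelr1 passed as lower in homozygotes (log2 fold change -0.48, SE 0.15, edgeR adjusted p = 0.0396) and in heterozygotes (-0.46, SE 0.15, adjusted p = 0.0400) than in wild type, but not between the 2 (-0.02, adjusted p = 1.00). Against wild type, 11.1% of all features passed as lower in homozygotes and 12.9% in heterozygotes. Groups that did not overlap were found for 42.6% and 42.1% of them. Kdelr1 moved with the elongating spermatid and Leydig marker sums, whose part in it was not tested. The call in homozygotes was lost without wild-type library 1 or 3, heterozygous library 2 or any 1 homozygous library (adjusted p 0.0515 to 0.151), and that in heterozygotes without wild-type library 1 or 3, heterozygous library 2 or 3 or homozygous library 1 (0.0520 to 0.155). Scaling by library size alone also ended both calls (0.0623 and 0.0988), and a fit of the 2 groups compared alone ended that in heterozygotes (0.0619), so 9 of 16 alternatives kept each call.

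Unc119 stood at 29.7 ± 1.11, 26.6 ± 4.11 and 28.0 ± 1.03 CPM in the order wild type, heterozygous and homozygous, and Kdelr3 at 2.65 ± 0.14, 2.93 ± 0.60 and 2.72 ± 0.63 CPM (SD, n = 3 each). For both, the groups overlapped in all 3 contrasts and no contrast passed. Per kilobase of gene body in wild type, Unc119 was above Unc119b (5.23 ± 0.20 against 1.34 ± 0.06 CPM), and Kdelr2 was above Kdelr1 and Kdelr3 (2.94 ± 0.24 against 1.49 ± 0.19 and 0.234 ± 0.012 CPM), with no overlap beyond 1 SD.

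Genes that act with the 2 proteins were counted in 3 lists. Of 11 genes of lipidated cargo transport (the other UNC119 protein, ARL GTPases, their partners and N-myristoyltransferases), 10 could be fitted. The contrast of homozygotes with heterozygotes had 0 past the edgeR test and 0 with p below 0.05 before adjustment. Over all features, 0.0289% passed there and 3.07% had p below 0.05 before adjustment. The median log2 fold change was 0.06, against 0.007 over all features. Against wild type, Nmt2, an N-myristoyltransferase, rose in homozygotes (0.26) and Arl2, a GTPase that also binds UNC119 proteins, fell (-0.40), with a list median of -0.07. Over all features, 9.68% passed as higher and 11.1% as lower in homozygotes, and 11.1% and 12.9% in heterozygotes. In heterozygotes 0 rose and 3 fell, namely Arl2 (-0.46), Arl2bp, a binding partner of ARL2 (-0.49), and Pde6d, a chaperone of prenylated proteins (-0.34), with a median of -0.07. The medians over all features were -0.01 and -0.002 in these 2 contrasts.

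Another list held 25 genes for proteins with a KDEL-like end, the cargo of KDEL receptors, or for a partner of these (Dnajb11). Of the 25, 23 were found and fitted, and 0 passed in the contrast of homozygotes with heterozygotes (0 with p below 0.05 before adjustment, median 0.05). In that contrast 0.0289% of all features passed in edgeR, and 3.07% had p below 0.05 before adjustment. Hspa5, the main Hsp70 chaperone of the endoplasmic reticulum, stood at 617 ± 40.6 CPM in homozygotes and 574 ± 22.1 in heterozygotes (log2 fold change 0.10, edgeR adjusted p = 1.00). Dnajb11, its co-chaperone, stood at 71.4 ± 6.16 and 63.4 ± 5.32 CPM (0.17), and Calr, the calcium-binding chaperone calreticulin, at 482 ± 10.1 and 444 ± 10.5 CPM (0.12). Against wild type, 9.68% of all features passed as higher and 11.1% as lower in homozygotes, and 11.1% and 12.9% in heterozygotes. Of these 23 genes, 2 rose and 3 fell in homozygotes, with a median of 0.06, and 2 rose and 3 fell in heterozygotes, with a median of 0.04. Those that rose were Dnajc10, a disulfide reductase (0.40 in homozygotes and 0.36 in heterozygotes), and Hsp90b1, the Hsp90 chaperone of the endoplasmic reticulum (0.30 and 0.28). Those that fell were Txndc5, a disulfide isomerase (-0.48 and -0.47), Sdf2l1, a partner of the Hsp70 chaperone (-0.46 and -0.48), and Erp29, a chaperone related to disulfide isomerases (-0.36 and -0.35).

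Of 20 genes of the COPI coat and its Arf cycle, which carry KDEL receptors back, all 20 were fitted and 0 passed in the contrast of homozygotes with heterozygotes (0 with p below 0.05 before adjustment, median 0.05). The shares over all features there were 0.0289% in edgeR and 3.07% before adjustment. Copa, the coat subunit α, stood at 195 ± 20.8 CPM in homozygotes and 180 ± 6.67 in heterozygotes (log2 fold change 0.12), and Arf3, an Arf GTPase, at 29.0 ± 1.15 and 31.3 ± 1.98 CPM (-0.11). Against wild type, 0 rose and 2 fell in homozygotes, Copz2, a coat ζ subunit (-0.83), and Arfgap2, a GTPase-activating protein of Arf (-0.36), with a list median of -0.12. In heterozygotes 0 rose and 4 fell, Copz2 (-0.94), Arfgap2 (-0.46), Arfgap3 (-0.33) and Arf4 (-0.25), with a median of -0.10. Of all features, 9.68% passed as higher and 11.1% as lower in homozygotes, and 11.1% and 12.9% in heterozygotes. The genes named for their calls against wild type, other than Nmt2, Arl2bp, Pde6d and Arfgap3, were picked after their values were seen. The marker sums that separate wild type from the other genotypes fell along with the genes that fell, whereas Nmt2, Dnajc10 and Hsp90b1 rose. The part of the marker sums in these calls was not tested. Under the alternatives tried, Copz2 and Arfgap2 kept their calls in heterozygotes under all 16. Arf4 lost its call there under 14 of the 16, Hsp90b1 under 10 and Pde6d under 9, and the other calls named in the 3 lists were lost under 1 to 7. Among small RNA, 2, 8 and 8 genes of the 3 lists could be fitted, and 0 passed the edgeR test at an adjusted p of 0.05, with 0, 0 and 1 under that threshold before adjustment. Over all fitted small RNA genes, 0.0279% passed and 8.71% were under it before adjustment.

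**Figure D5:**
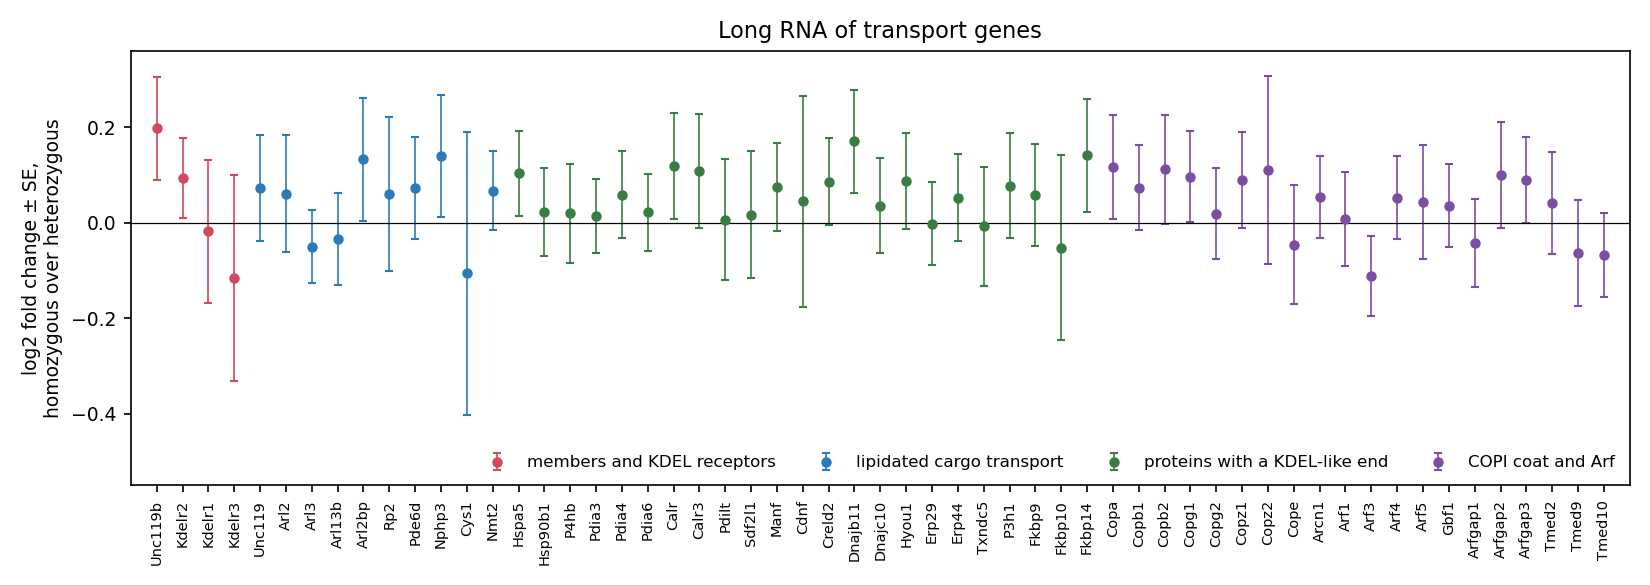
Log2 fold change of long RNA in homozygotes over heterozygotes with its SE (y axis) for the 2 genes and the other KDEL receptors (red), lipidated cargo transport (blue), proteins with a KDEL-like end and Dnajb11 (green) and the COPI coat with Arf proteins (purple). All points lie between -0.12 and 0.20, and none passed at an adjusted p of 0.05, where 0.0289% of all features did.

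The genes most like the 2 members were found by Pearson's r of log2 CPM, as a description. Over the 6 small RNA libraries, among the 1141 or 1142 other genes with a mean of at least 50 reads in the higher group, Unc119b was closest to Kmt2b (r = 0.98), a histone methyltransferase, Slc43a2 (0.97), an amino acid transporter, and Mms19 (0.96), an iron-sulfur cluster assembly factor. Kdelr2 was closest to Mms19 (0.99), Kmt2b (0.98) and Ccdc88c (0.98), a Dishevelled-binding protein. These points share the split into 2 genotypes, which the choice of the members fixed. Slc43a2 small RNA stood at 907 ± 105 CPM in heterozygotes and 456 ± 15.5 in homozygotes (log2 fold change -0.99, edgeR adjusted p = 0.188), whereas Kmt2b stood at 43.6 ± 2.43 and 33.9 ± 0.95 CPM (-0.36, adjusted p = 0.557).

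Over the 9 long RNA libraries, among 10275 features with a mean of at least 10 CPM, Unc119b was closest to Alg1 (r = 0.93), a mannosyltransferase of N-glycan assembly, Txndc11 (0.88), a thioredoxin domain protein, and Mcm5 (0.87), a subunit of the replicative helicase. Kdelr2 was closest to Umps (0.98), an enzyme of pyrimidine synthesis, Diablo (0.96), a mitochondrial pro-apoptotic protein, and Tspyl4 (0.94), a nucleosome assembly family protein. All features of a library share its scaling and depth. Depth ran from 21684791 to 41513634 counted fragments, and the 2 genes span a narrow range in these libraries.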

How the data were processed

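The values the authors deposited are raw counts for each feature. Per the file headers, RNA-seq counts came from featureCounts over whole gene bodies, introns included, with properly paired fragments and 1 file per strand setting, on GENCODE genes plus piRNA precursors. Fragments in overlapping features of a strand were left out. Small RNA was counted on the sense strand of each gene's exons, and no option to count multi-mapping reads appears in the headers. Reads shared by near-identical copies can therefore be missing from a gene or be placed by a mismatch. The submitters' processing notes name HISAT2 2.1.0, cutadapt 1.18, featureCounts 1.6.2, Bowtie2 2.2.5, DESeq2 1.20.0, Salmon 0.11.3 and SAMtools 1.9, and the builds mm9 and mm10, with no role for any. RNA-seq used a stranded total RNA kit with ribosomal depletion, per the labels' protocols. The kit strand was the reverse setting.

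Groups came from the genotype labels. Counts were filtered with filterByExpr by group, scaled by TMM and tested with edgeR 4.0.16 (quasi-likelihood) in R 4.3.3, 1 fit for each of small RNA, long RNA and opposite-strand RNA, with Benjamini-Hochberg adjustment over all features fitted and a threshold of 0.05. SE is the size of the log2 fold change divided by the square root of F, and 95% intervals use the t distribution. The steps were tested on simulated counts with a set spread and larger fold changes than any given here for long RNA. That does not measure how well they find small changes in these libraries. Levels are CPM on the scaled library sizes. Symbols were found for 49326 of 49585 genes. Transcripts came from GENCODE M21 (GRCm38, the mm10 assembly), and alignments from BLAST 2.17.0. Named genes beside the members are paralogs, neighbours, up to 4 genes of each list with the lowest p between homozygotes and heterozygotes, and 3 genes of highest correlation in each kind of library. The members and lists were chosen with earlier results of these data known.

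All pairs of libraries of a group differed beyond sampling noise (chi-square per degree of freedom 1.99 to 50.7). Heterozygous small RNA library 1 was at 25.7 and 27.2 against libraries 2 and 3, which were at 2.11 from each other. In long RNA, library 1 was at 47.6 and 50.7 beside 3.12 in wild type, and at 39.2 and 42.6 beside 17.9 in heterozygotes. Homozygous pairs were at 3.34 to 4.39 in small RNA and 12.1 to 15 in long RNA. RNA-seq replicate numbers follow sample order. The labels do not say that equal numbers share an animal or a day, so no pairing was used. Whether equal numbers move together in RNA-seq was not checked. Alternatives were DESeq2 1.42.0, other scaling (RLE or library size alone), other filters (none, or 1 CPM on average), a fit of the groups compared alone, the sum of both strands, a replicate block and heterozygous libraries 2 and 3 left out together for small RNA, and each library left out.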

Additional observations from a re-analysis of the deposited data

How the results depend on the processing

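Over 13 alternatives, the small RNA log2 fold change ran from -2.72 to -2.37 for Unc119b and from -1.99 to -1.64 for Kdelr2, moves within the spread between libraries. The count of genes that passed in this contrast, 1, was unstable. It was 43 with no filter, 67 without heterozygous libraries 2 and 3, and 0 to 617 with 1 library left out (617 without heterozygous library 1, and 0 without homozygous library 2 or 3). Equal replicate numbers did not move together in small RNA (correlations -0.16, 0 and -0.09), and with a replicate block 0 genes passed. In long RNA neither gene passed under any of 16 alternatives (lowest adjusted p 0.265). The number of features that passed between homozygotes and heterozygotes, 6, became 17 with DESeq2 and 13 with no filter, and 4 to 18 with 1 library left out (18 without heterozygous library 3). Against wild type and with 1 library left out, it moved from 4319 to between 1805 (without homozygous library 3) and 4737 in homozygotes, with 1899, 2760 and 2814 without homozygous library 2 and wild-type libraries 2 and 3, and from 4977 to between 2432 (without heterozygous library 3) and 4720 in heterozygotes, with 2901 without wild-type library 1, and the highest counts over all alternatives were 4974 (only the groups compared) and 5432 (both strands summed). Scaling by library size alone shifted the median of all features by 0.10 between heterozygotes and wild type and turned the sign of Unc119b there to 0.031 and of Kdelr2 to 0.075. With 1 library left out these ran from -0.137 to 0.018 and from -0.069 to 0.045. On the opposite strand Kdelr2 passed under none of 15 alternatives (lowest adjusted p 0.351), and between heterozygotes and wild type ran from -0.15 to 0.48 with 1 library left out (0.48 without heterozygous library 3). Counts there became 35 with no filter and 0 to 4 with 1 library left out between homozygotes and heterozygotes. Against wild type and with 1 library left out, 1193 became 338 to 1511 and 1251 became 439 to 1458, lowest without homozygous library 2 and wild-type library 1, and the highest over all alternatives were 1523 (only the groups compared) and 1542 (no filter). Unc119b had no opposite-strand fit. With both strands summed Erp29 moved to -0.14 and -0.17 against wild type. The cause of these changes was not tested. Depth limits Kdelr2 small RNA and both genes' opposite strands.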
